A study of Mus musculus with 6 samples.

Results

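Of the 6270 Argonaute (Ago) footprints in the deposited table, 207 (3.30%) overlapped no annotated 3′ UTR on their own strand. They were chosen by position alone: the interval of each footprint on mouse build mm9, with the strand given by its identifier, was set against the 3′ UTRs of the GENCODE vM1 annotation, and every footprint with no overlap of even 1 base was kept. The other 6063 (96.7%) lay in 3′ UTRs. By the first feature overlapped on the same strand, 34 of the 207 lay in coding sequence, 2 in a 5′ UTR, 35 in another exon (called noncoding exon here), 27 in an intron, and 109 on no gene at all. Of those 109, 96 lay within 5 kb past the nearest upstream gene end.

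The assay was Ago HITS-CLIP, where an antibody (here 2A8) pulls down Ago together with the RNA it was cross-linked to, and that RNA is sequenced. The cells were macrophages grown from C57BL/6 bone marrow with the cytokine M-CSF. The compared groups were wild-type (WT) mice and Apobec1-/- mice (KO), 6 to 12 weeks old, taken as 3 littermate pairs, which gave 3 libraries per genotype. The missing enzyme, APOBEC1, deaminates cytidines of mRNA to uridines, and the knockout is constitutive. The table holds 1 occupancy value per genotype, the footprint signal divided by the expression of its transcript, and the number of libraries, from 0 to 3, in which the footprint was found. With 1 value per genotype no difference below has a replicate check, an SD or a test, and a 2-fold rule stands in for a call. No read counts are given, so depth is unknown. Of 15 macrophage marker genes, 12 carried a footprint in their 3′ UTR, and no T cell, B cell, neutrophil, fibroblast or dendritic cell marker did. Of 3 osteoclast markers, 1 did. None of the 207 footprints lay on a marker gene.

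Ago proteins carry microRNAs, which pair with target RNA mainly through the seed, bases 2 to 8 counted from the miRNA's 5′ end. Most known animal miRNA sites lie in 3′ UTRs, where ribosomes do not displace the complex. Sites in coding sequence and in long noncoding RNAs are also known, and a footprint just past an annotated gene end can lie on a transcript that ends further on than the annotation says. Messenger RNA ends are cut after a poly(A) signal, most often AATAAA or ATTAAA.

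The sequences below show what the strongest of these footprints held. Among 28 miRNA families searched for a 7-nt match to the seed, 36 of the 207 footprints (17.4%) had at least 1 site, against 21.3% of those in 3′ UTRs and 21.2% of the table; the difference was not tested. The miRNAs of the matched families shown here, from RefSeq (build GRCm38.p6), have the seed in capitals:
miR-142a-5p: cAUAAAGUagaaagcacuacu
miR-155-5p: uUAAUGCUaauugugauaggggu
miR-125a-5p: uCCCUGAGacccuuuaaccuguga
miR-16-5p: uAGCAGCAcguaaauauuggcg
miR-27a-3p: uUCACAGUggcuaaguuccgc
miR-34a-5p: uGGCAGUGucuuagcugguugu
miR-30a-5p: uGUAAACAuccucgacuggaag
let-7a-5p: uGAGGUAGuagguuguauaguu
miR-142a-3p: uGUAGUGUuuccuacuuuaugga

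The footprints with sites are given as 30 bases of the mm9 sequence on the footprint's strand, with the match to the seed in capitals. They were picked as strong members or as members that share a family:
past Metrnl, miR-142-5p: ctccaggagggACTTTATagcttctggtga
past Wee1, miR-155: gctgtaaaactAGCATTAaacaatcattgt
Ddx17 intron, miR-125: atgaacattcaCTCAGGGgttttgattgct
Txnip coding sequence, miR-125: aatcacattatCTCAGGGacttgcgcatcg
past 9830001H06Rik, miR-15/16: ttaaccaccacTGCTGCTatctccagaact
past 9830001H06Rik, miR-15/16, nearer the gene end: aggcaccaccgTGCTGCTctcgctctgtac
past Lonrf3, miR-15/16: taccgtactatTGCTGCTagctaaaaacca
past Lonrf3, miR-142-5p, same footprint: gtagcaagcagACTTTATgcctttctgctt
past Lonrf3, let-7: acactattcaaCTACCTCtctatgcctgat
Prkcb intron, miR-27: agctgctgtgaACTGTGAccagtcatgtgt
past Reep3, miR-34: gacttaacccaCACTGCCaactggagcacc
past Reep3, miR-34, nearer the gene end: gctgacctgctCACTGCCgttcaccctccc
Spcs3 noncoding exon, miR-30: cctaaaagggcTGTTTACtagcaatagcat
Spcs3 noncoding exon, miR-30, same footprint: agcatttgttcTGTTTACctcatgtgctta
Atp2a2 coding sequence, let-7: cagttcatccgCTACCTCatctcatccaac
Tug1 exon, miR-142-3p: gacagcagagtACACTACttacttctttca

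The 2 highest occupancies held none of these sites. The central 30 bases of the 2 strongest footprints and of a strong one in Ddx58 have no capitals, since neither a 7-nt nor a 6-nt match (bases 2 to 7) to any of the 28 families was found there or elsewhere in the footprint:
past Wee1: ctcagagactcagtactcctctgcctccaa
Malat1: ttgctaaaatttaaatgtgctccaatgtac
Ddx58: ttcaaatggcatttccgtgtttcttctcaa
A missing match says only that these letters are not in this window.

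Occupancy outside 3′ UTRs was 0 to 28.2 in KO and 0.0277 to 29.9 in WT. Its median was 0.551 in KO and 0.581 in WT, against 0.377 and 0.406 over all 6270 footprints. The mean of the 2 values was at or above the table median of 0.425 in 132 of the 207 (63.8%). The median log2 ratio of KO over WT was 0.08, against -0.04 over the table, with 109 footprints higher in KO and 98 lower. In KO, 40 footprints (19.3%) were at least 2-fold higher, where 18.9% of all footprints were, and 43 (20.8%) were at least 2-fold lower, where 24.2% of all were. Both shares lie near those of the table.

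The footprints low in KO were also those found in few KO libraries. Of the 43 that were at least 2-fold lower in KO, 33 were found in no KO library, as were 1054 of the 1518 in the table. Of the 40 at least 2-fold higher, 24 were held by at least 2 KO libraries and 1 by none. A footprint entered the table through at least 2 libraries of either genotype, so one found in no KO library entered through WT. Of the 207, 195 were found in at least 2 WT libraries and 75 in at least 2 KO libraries. Among the 63 found in at least 2 of both, the median log2 ratio was 0.63, and 18 (28.6%) were at least 2-fold higher in KO and 1 (1.59%) lower. The same restriction gave a median of 0.42 over the 2196 such footprints of the table, with 26.2% higher and 5.01% lower. Of the 64 with no KO library, 8 were listed at 0 in KO. The other 56 had KO values from 0.0374 to 1.05, and 44 of these values were shared exactly with at least 1 other footprint of the table. The sources used here do not say how a footprint found in no library came by a value above 0.

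**Figure D1:**
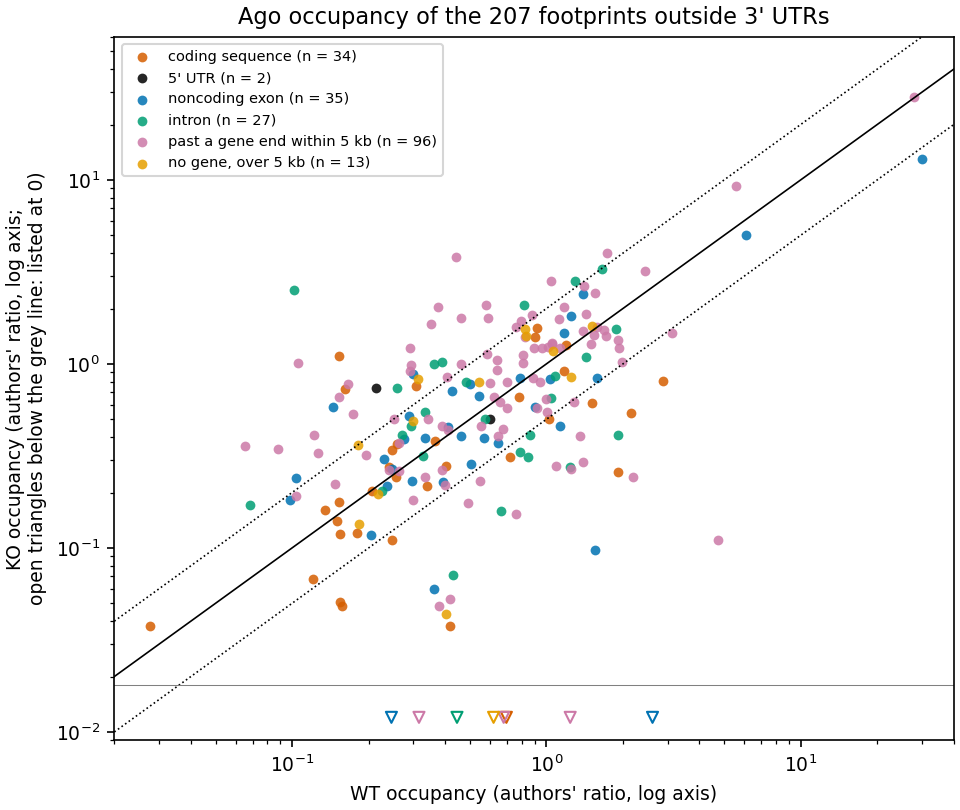
KO occupancy against WT occupancy, both on log axes, with 1 point for each of the 207 footprints coloured by position; the solid line marks equal values, the dotted lines 2-fold differences, and the open triangles the 8 footprints listed at 0 in KO. The 2 points at the upper right are the footprint past Wee1 (28.2 in KO, 27.9 in WT) and the stronger Malat1 footprint (13.1 and 29.9).

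**Figure D2:**
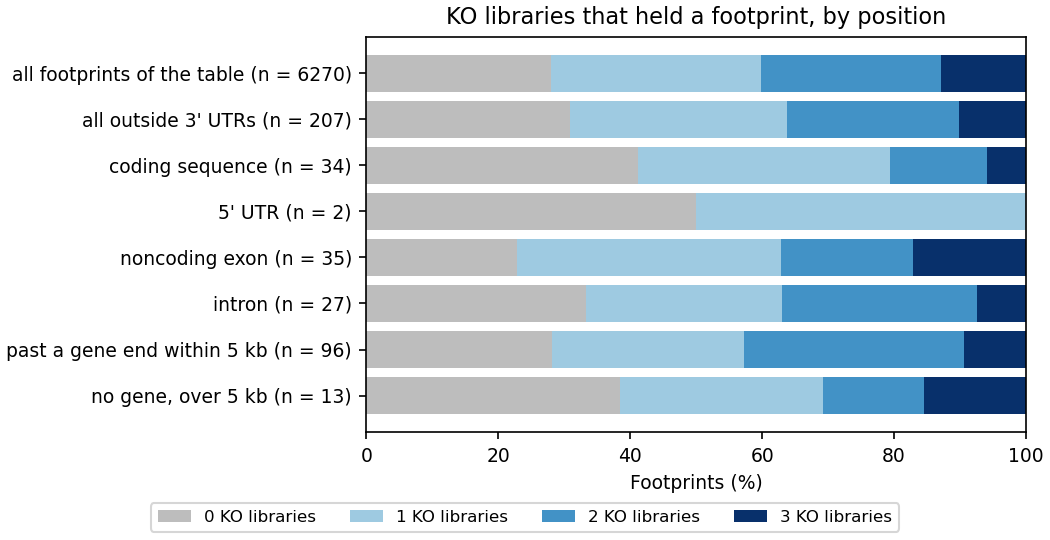
Share of footprints (%) found in 0, 1, 2 or 3 KO libraries, by position, with the whole table at the top. At least 2 KO libraries held 75 of the 207 footprints (36.2%), against 40.1% of the table.

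Past gene ends, which held the largest class, occupancy was above the level of the table in both genotypes. The 96 footprints within 5 kb had a median of 0.817 in KO and 0.688 in WT and a median log2 ratio of 0.28. Occupancy is a ratio to expression, and the transcript used for footprints on no gene is not named. Whether the higher level lies in the footprint signal or in the divisor was not tested. At least 2-fold higher in KO were 25 of them (26.0%; 18.9% of the table), and 16 (16.7%; 24.2% of the table) were at least 2-fold lower. Over all 109 without a gene, the distance to the upstream end was 1517 nt at the median (quartiles 739 and 2922 nt, range 8 to 459610 nt), and 39 lay within 1 kb. These distances count the end of any annotated gene, small RNA genes and pseudogenes included. To protein-coding ends only, the median was 2079 nt, and 87 lay within 5 kb. A poly(A) signal (AATAAA or ATTAAA on the same strand) followed within 1 kb in 73 of the 109 (67.0%), against 75.7% of the footprints in 3′ UTRs, a difference that was not tested. The 8 nt of the shortest distance belonged to Pou2f2, which encodes the transcription factor Oct-2.

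**Figure D3:**
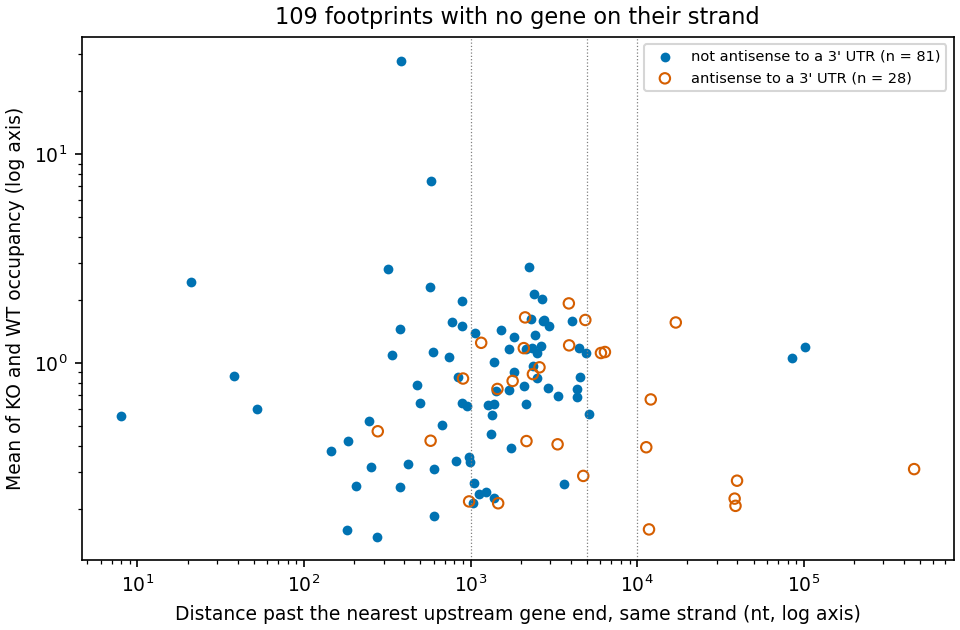
Mean of the KO and WT occupancies (log axis) against the distance in nt past the nearest upstream gene end on the same strand (log axis), for the 109 footprints with no gene; open circles lie antisense to an annotated 3′ UTR, and dotted lines mark 1, 5 and 10 kb. Footprints gather between 100 nt and 5 kb, and 10 of the 13 beyond 5 kb are open circles.

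The strongest footprint past a gene end was that of Wee1, a kinase that restrains entry into mitosis by inhibiting CDK1. At chr7:117286008-117286072 on the plus strand, 382 nt past the annotated end, occupancy was 28.2 in KO and 27.9 in WT, with a log2 KO/WT of 0.02, and all 6 libraries held it. The next footprint, 574 nt past the end (chr7:117286200-117286271), had 1.48 in KO and 3.13 in WT and carried the miR-155 match printed above. It was found in 1 KO and 3 WT libraries. The strong footprint was thus nearly equal in the genotypes, and the weaker one had a log2 KO/WT of -1.08.

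Metrnl, a secreted meteorin-like protein, had a footprint of 9.26 in KO and 5.57 in WT at chr11:121578200-121578458 on the plus strand, 580 nt past its end, in all 6 libraries. Its single footprint inside the annotated 3′ UTR was at 0.987 in KO and 0.517 in WT. The footprint past the end was thus the stronger of the pair in both genotypes, and both were higher in KO. Past Pou2f2, 884 nt from the end, occupancy was 2.42 in KO and 1.56 in WT, again in all 6 libraries. Of its other 2 footprints, the one 1057 nt past the end was at 1.29 in KO and 1.49 in WT, and the one at 8 nt at 0.441 and 0.672.

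Camkk2, a kinase upstream of the CaM kinases and AMPK, gave the lowest ratio of the 207 among footprints above 0 in both genotypes. At chr5:123183126-123183192 on the minus strand, 21 nt past the gene end, occupancy was 0.111 in KO and 4.75 in WT, with a log2 KO/WT of -5.40. No KO library and all 3 WT libraries held it, and the KO value was held by 3 footprints of the table. The other 2 footprints past Camkk2 did not share this direction: 0.191 in KO and 0.103 in WT at 274 nt, and 1.01 and 0.807 at 1815 nt. Its 3′ UTR footprint had 0.877 in KO and 0.566 in WT.

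Several genes had a run of footprints past their annotated end. The longest was that of Zfp871, a zinc finger protein, with 9 footprints between 775 and 5128 nt past the end on chromosome 17. Occupancy was higher in KO in 7 of them and at least 2-fold higher in 6, which are not independent, since they share a locus. Of these 6, those at 2387 and 2649 nt were found in 2 KO libraries. Those at 1421, 2498 and 4452 nt were in 1 KO library each, and the one at 5128 nt in none. The strongest, 2387 nt past the end, had 3.82 in KO and 0.439 in WT (log2 ratio 3.12), in 2 libraries of each genotype. Next to it, at 2498 nt, values were 1.77 and 0.460, and at 2649 nt 2.03 and 0.376. Between the footprints that were higher, the one at 2922 nt had 0.269 in KO and 1.25 in WT and was found in no KO library. The first of the run, at 775 nt, had 1.42 and 1.71. Inside the annotated 3′ UTR, 1 of the 2 Zfp871 footprints had 2.83 in KO and 0.645 in WT, while its neighbour was listed at 0 in KO.

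Lonrf3, a RING finger protein, had 6 footprints past its end on chromosome X and none in its 3′ UTR. A small nuclear RNA entry (U6) lies between the first of them and the other 5, so the nearest annotated end of those 5 is that of U6. Occupancy was higher in KO in 5 of the 6. The strongest had 4.01 in KO and 1.74 in WT, found in 3 and 2 libraries, and lay 3903 nt past Lonrf3. The footprint with matches to both miR-15/16 and miR-142-5p had 1.66 in KO and 0.351 in WT, that with the let-7 match 2.66 and 1.40. The sixth, 2473 nt past Lonrf3, was listed at 0 in KO and at 0.679 in WT.

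**Figure D4:**
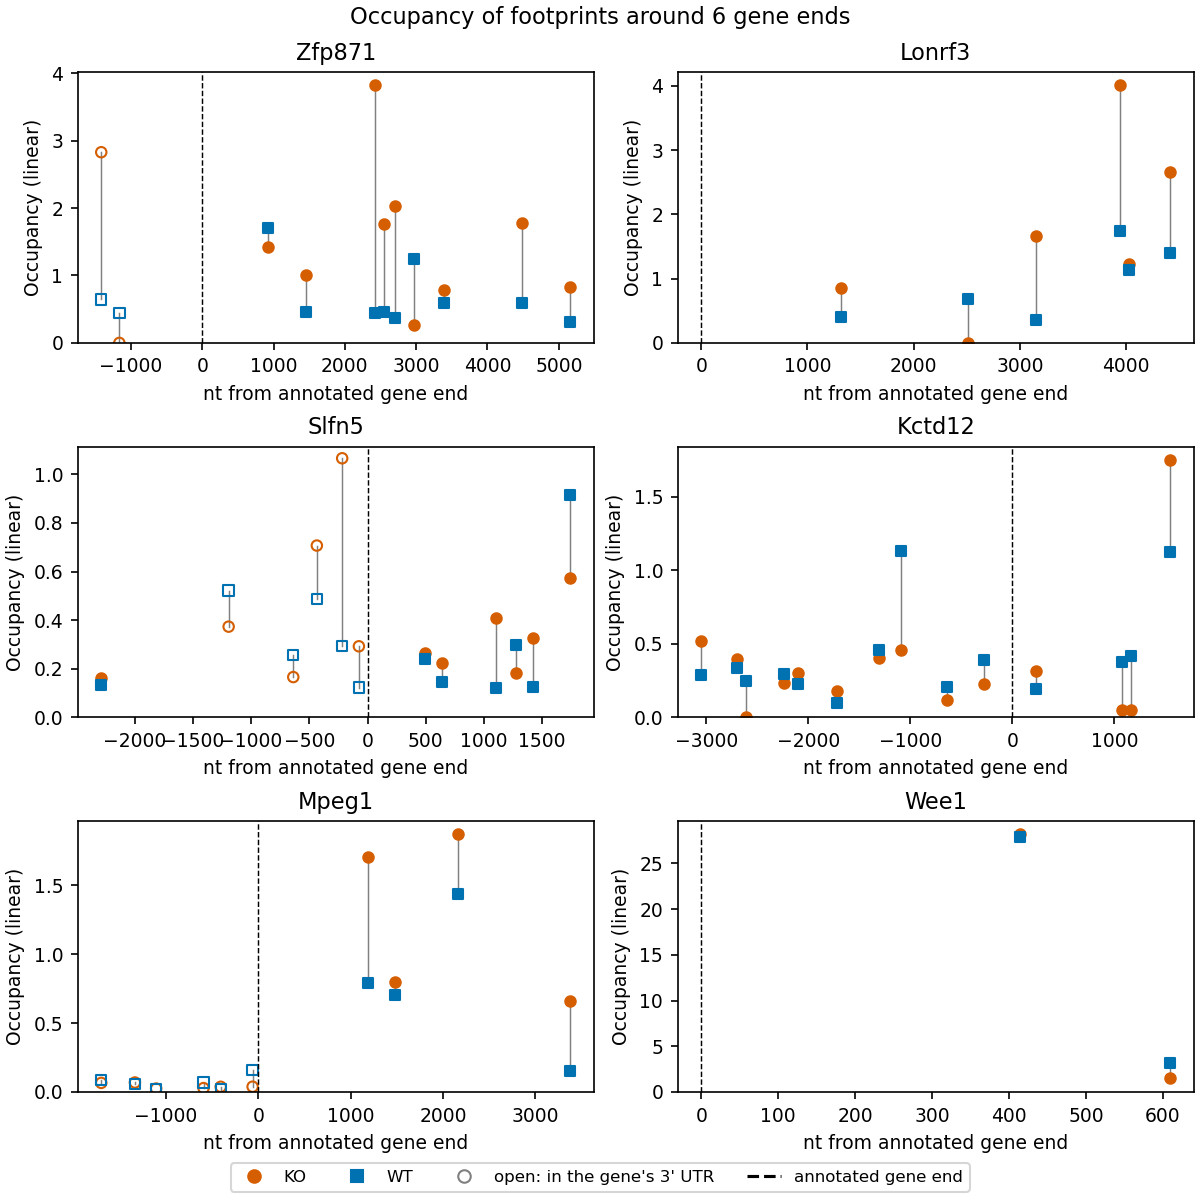
KO (circles) and WT (squares) occupancy of footprints around 6 annotated gene ends, by distance in nt of the footprint centre from the end (dashed line); filled symbols are footprints outside 3′ UTRs, open symbols those in the gene's own 3′ UTR, and each panel has its own linear axis from 0. In the Zfp871 panel 7 of the 9 filled pairs have KO above WT, and in the Mpeg1 panel the 4 filled pairs stand above all 6 open pairs in KO.

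Slfn5, of the Schlafen family, had 6 footprints from 376 to 1709 nt past its end and 1 in its coding sequence, with 5 more in the 3′ UTR. Occupancy of the 7 was 0.161 to 0.575 in KO and 0.122 to 0.915 in WT, and that of the 3′ UTR footprints 0.166 to 1.07 and 0.123 to 0.522. The highest WT value, 0.915, lay 1709 nt past the end and above all 5 in the 3′ UTR. Pikfyve, the lipid kinase that makes PI(3,5)P2, had 4 footprints from 38 to 2451 nt past its end. The one at 1810 nt had 2.08 in KO and 0.581 in WT, that at 2451 nt 1.84 and 0.877. The 2 nearest to the end, at 38 and 499 nt, had 0.793 and 0.661 in KO and 0.943 and 0.625 in WT. Zfp445, another zinc finger protein, had 4, with 0.578 to 1.05 in KO and 0.295 to 0.697 in WT, and 3 of them were in no KO library. The 4 past 9830001H06Rik were close to each other and between genotypes, at 1.23 to 1.53 in KO and 1.01 to 1.91 in WT, and none differed 2-fold.

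Ap1g1, the gamma subunit of the AP-1 clathrin adaptor, had 4 footprints between 739 and 1752 nt past its end that ran in both directions. The first had 1.23 in KO and 0.898 in WT, which were followed by 0.535 and 0.173. The 2 further on had 0.154 and 0.231 in KO against 0.757 and 0.549 in WT, and neither was found in a KO library. Prrc2c had 3 footprints from 477 to 885 nt past the end, at 0.837 to 1.44 in KO and 0.642 to 1.55 in WT. Past Ifnar1, a subunit of the type I interferon receptor, the 2 footprints had 0.551 and 1.59 in KO and 1.01 and 1.58 in WT.

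Some entries of the annotation repeat a gene symbol further along the strand, and 8 of the 109 footprints lay between 2 entries of the same symbol: 4 of Itpripl2, 3 of Purb and 1 of Pgap1. Purb encodes a single-stranded nucleic acid binding transcription factor. Its footprints had 3.20 in KO and 2.45 in WT (chr11:6371841-6371911, minus strand), 1.03 and 1.99, and, 952 nt past the end, 0 in KO and 1.24 in WT. In the 3′ UTR of Purb, 4 footprints had 0 to 1.45 in KO and 0.256 to 1.41 in WT. Of the 4 between the Itpripl2 entries, the one at 1345 nt had 1.02 in KO and 0.105 in WT (log2 ratio 3.26), found in 3 KO and 2 WT libraries. The other 3 differed less, at 0.264, 0.438 and 1.12 in KO and 0.390, 0.411 and 0.813 in WT.

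Single footprints past other gene ends included some of the most unequal pairs. Past Kdm1a, a histone demethylase, occupancy was 0.243 in KO and 2.18 in WT, and past Hmox2, a haem oxygenase, 0.294 and 1.39. Both were found in no KO library. Past Dcaf8, a substrate receptor of CUL4 ubiquitin ligases, it was 0.775 and 0.166, and past Tnfrsf1b, the second TNF receptor, 0.918 and 0.291. The footprints past Kdm1a, Hmox2 and Dcaf8 lay antisense to the 3′ UTRs of Luzp1, 5730403B10Rik and Pea15a. Past Aak1, a kinase of the AP-2 adaptor, the footprint was found in 2 KO libraries and no WT library, with 1.40 in KO and 0.824 in WT. Past Cct6a, a chaperonin subunit, occupancy was listed at 0 in KO and at 0.316 in WT.

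Many of the footprints lay opposite a 3′ UTR. Of the 207, 44 (21.3%) were antisense to an annotated 3′ UTR of the other strand, against 1.14% of the footprints in 3′ UTRs. The rule that chose the members leaves positions on no same-strand 3′ UTR, so the shares are a description. Among the 109 on no gene 28 were antisense to a 3′ UTR, among those in introns 11 of 27, in coding sequence 3 and in noncoding exons 2. Of the 13 without a gene and over 5 kb from an upstream end, 10 were. These 44 had a median of 0.474 in KO and 0.494 in WT, and 10 (22.7%; 18.9% of the table) were at least 2-fold higher and 10 (22.7%; 24.2% of the table) lower in KO.

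Of these 44, 8 overlapped a footprint of the table on the opposite strand, each in the 3′ UTR of another gene. The footprint on the strand of Usp37, opposite the phosphatase gene Ctdsp1, had 0.0435 in KO and 0.404 in WT, and its Ctdsp1 partner 0.0445 and 0.429. Both were found in 0 KO and 3 WT libraries. The one past the profilin gene Pfn1 had 0.460 and 0.388, and its partner in Rnf167 0.445 and 0.392, both in 1 KO and 2 WT libraries. These pairs overlapped by 20 and 69 nt. Opposite Map3k11, a kinase of the JNK pathway, values were 0.242 and 0.333, and 0.289 and 0.351 in the partner. Of 2 pairs opposite Ank, a pyrophosphate transporter, 1 had 0.135 in KO and 0.184 in WT with a partner at 0.152 and 0.230, and the other 0.794 and 0.543 with a partner at 1.15 and 0.914.

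Of the other 3 pairs, each differed by over 1.5-fold in at least 1 genotype, as the stronger Ank pair did in WT (1.68-fold). Opposite Bcl2l1, which encodes the survival protein Bcl-x, KO values were 1.61 and 1.62 and WT values 1.52 and 0.792, with an overlap of 2 nt. Opposite Evi2a, a gene inside an Nf1 intron, the Nf1-strand footprint had 0.170 in KO and 0.0683 in WT, its partner 0.103 and 0.105. Opposite Capn7, a calpain protease, the Sh3bp5-strand footprint had 0.275 and 1.23 and the partner 1.29 and 0.775. This was the one pair in which the genotypes ran in opposite directions by more than 1.5-fold on each strand. The Sh3bp5-strand footprint was found in 0 KO and 3 WT libraries, and its partner in 2 of each. The KO value of 0.275 was held by 3 footprints of the table. Whether reads of 1 strand were counted on both was not tested, since the table holds no reads.

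**Figure D5:**
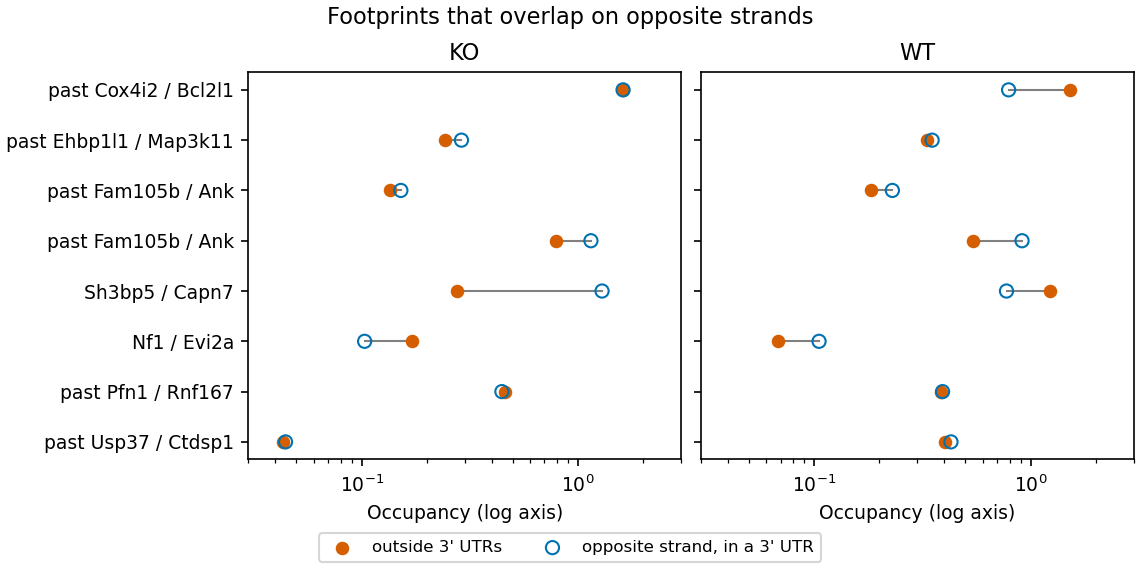
Occupancy (log axis) in KO and WT of the 8 footprints outside 3′ UTRs (filled) that overlap a footprint on the other strand, joined to that partner (open), with the gene of the partner after the slash. In KO the pair of Sh3bp5 and Capn7 is the widest, at 0.275 (a footprint in no KO library) and 1.29. The pair of Pfn1 and Rnf167 nearly coincides in both genotypes.

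At Mpeg1, footprints past the end, all antisense to another gene's 3′ UTR, stood above most of those in the gene's own 3′ UTR. Mpeg1 encodes the macrophage pore-forming protein perforin-2, and its 4 footprints past the end lie opposite the 3′ UTR of Dtx4. In order of distance they had 1.70, 0.798, 1.87 and 0.662 in KO and 0.793, 0.703, 1.43 and 0.153 in WT. The 6 footprints in the Mpeg1 3′ UTR had only 0.0249 to 0.0690 in KO and 0.0176 to 0.159 in WT. The groups did not overlap in KO and met in WT only at the lowest of the 4. Occupancy is a ratio to the expression of a transcript, and the sources used here do not name the transcript used for footprints on no gene.

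The same comparison could be made at 45 genes. Of footprints on no gene, the mean of KO and WT was above the strongest 3′ UTR footprint of the gene in 30 of 59, made up of 14 of the 17 antisense to a 3′ UTR and 16 of the 42 that were not. In introns it was 14 of 15 (7 genes), in noncoding exons 8 of 8 (2 genes, Ddx58 and Tmed7), and in coding sequence 4 of 22 (15 genes). The 59 on no gene belonged to 22 genes. Footprints of the same gene share a locus and are not independent.

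Coding sequence had the lowest medians of the classes. The 34 footprints on 23 genes had a median of 0.278 in KO and 0.284 in WT and a median log2 ratio of -0.30. At least 2-fold higher in KO were 3 (8.82%; 18.9% of the table) and at least 2-fold lower 11 (32.4%; 24.2% of the table). In all, 5 lay in the last exon of their transcript. Atp2a2, the calcium pump SERCA2, held the most, with 5 footprints in exons 5, 7, 8, 12 and 15 of 21. From exon 5 to exon 15 they had 0.0484, 0.0374, 0.118, 0.178 and 0.367 in KO and 0.157, 0.418, 0.154, 0.153 and 0.260 in WT. The 2 in exons 5 and 7 were in no KO library, and the one in exon 15 carried the let-7 match.

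Clk1, a kinase that phosphorylates SR splicing factors, had 4 coding footprints, in exons 3, 7, 8 and 11 of 13. Occupancy was 0.342 in KO and 0.246 in WT in exon 3, 0.660 and 0.783 in exon 8, and 0.141 and 0.150 in exon 11. In exon 7 it was listed at 0 in KO and at 0.696 in WT. Rnf44, a RING finger protein, had 3 in exons 4, 5 and 6 of 11, with 0.217, 1.40 and 1.10 in KO and 0.340, 0.906 and 0.153 in WT. The exon 6 value gave the highest ratio in coding sequence, a log2 of 2.83, with 2 libraries of each genotype.

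The strongest coding footprints had both directions. Rcan3, a regulator of calcineurin, had 0.806 in KO and 2.89 in WT, Vps39, a subunit of the lysosomal HOPS tether, 0.540 and 2.16, and Ube3a, a ubiquitin ligase, 0.259 and 1.90. The Ube3a footprint was found in no KO library, and its KO value was held by 10 footprints of the table. The RNA helicase Ddx5 had 1.27 and 1.20, found in 3 KO and 2 WT libraries, and Zmynd8, a reader of histone marks, 1.57 and 0.922. Among weaker footprints, that of Brd2, a bromodomain protein, had 0.729 and 0.161, in 3 KO and 2 WT libraries. That of Zeb2, a transcription factor of macrophage identity, had 0.760 and 0.308. The miR-125 match in Txnip, which binds thioredoxin, stood in a weak footprint of 0.0679 in KO and 0.121 in WT.

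The 2 footprints in a 5′ UTR lay in Itpripl2, with 0.739 in KO and 0.214 in WT, and in Wdr13, with 0.501 and 0.600. The first was found in 1 KO and 2 WT libraries and the second in no KO library. The Itpripl2 position is a 5′ UTR of an entry further along the strand, as Itpripl2 is a symbol the annotation repeats. Another Itpripl2 entry stops 3240 nt upstream of this footprint. Whether 1 transcript spans these entries was not tested.

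Noncoding exons held 35 footprints on 14 genes, and few were on established long noncoding RNAs. Malat1, an abundant nuclear long noncoding RNA, had 2, both found in all 6 libraries. At chr19:5798433-5798497 on the minus strand occupancy was 13.1 in KO and 29.9 in WT, with a log2 KO/WT of -1.20, and no other footprint of the 63 held by at least 2 KO and 2 WT libraries was 2-fold lower in KO. The other, at chr19:5802274-5802336, had 0.842 and 1.58, with a log2 KO/WT of -0.90. Both Malat1 footprints were thus lower in KO. Tug1, another long noncoding RNA, had 0.884 in KO and 0.298 in WT, in 1 and 2 libraries, with the miR-142-3p match. Of the 22 long noncoding and snoRNA host genes listed, these 2 were the only ones with a footprint. In 5830432E09Rik and 1110038B12Rik, both long noncoding in RefSeq, values were 0.285 and 0.239 in KO and 0.503 and 0.103 in WT.

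In the older annotation 13 of the 35 lay on entries typed as pseudogenes, and RefSeq (GRCm38.p6) types all of these genes as protein coding. They were Kctd12 with 10, Tmem185b with 2 and Cebpd with 1. Kctd12, an auxiliary subunit of GABA-B receptors, had 4 more footprints past its end. None of the 14 passed 2-fold in the higher direction, and 4 did in the lower. The 10 within the entry had 0 to 0.520 in KO and 0.0984 to 1.13 in WT. The strongest of the 14, 1517 nt past the end, had 1.75 and 1.12, while the 2 at 1034 and 1118 nt had 0.0481 and 0.0529 in KO against 0.379 and 0.418 in WT, and overlapped each other. Tmem185b had 0.584 and 0.824 in KO and 0.145 and 1.03 in WT. Cebpd, a C/EBP transcription factor, had 0.452 and 0.410.

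Spcs3, a subunit of the signal peptidase, is a processed transcript in the older annotation and protein coding in RefSeq. Its 4 footprints were all lower in KO, from 0.0600 to 0.397 against 0.236 to 0.647 in WT, and 1 of them passed 2-fold. Of the 4, 2 were found in no KO library, among them the one past 2-fold, and the others in 1 KO library each. The one with the pair of miR-30 matches had 0.397 in KO and 0.569 in WT. Gpr137b-ps had 2 footprints in exons, at 0.713 and 1.81 in KO and 0.425 and 1.25 in WT, and 4 past its end, of which the one at 4349 nt had 1.21 and 0.291. Its footprint at 4075 nt had 1.23 and 1.93 and was in all 6 libraries. Gm16867 gave the highest WT value among the 8 listed at 0 in KO, 2.61, in all 3 WT libraries and no KO library. It lay antisense to the 3′ UTR of Entpd4.

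Ddx58 and Tmed7 are protein-coding genes whose footprints fell on exons of transcripts without a coding sequence. Ddx58 encodes RIG-I, the cytoplasmic sensor of viral RNA. Its footprint at chr4:40151628-40151713 on the minus strand had 5.05 in KO and 6.12 in WT in all 6 libraries, and a second had 0.840 and 0.786. The 3 footprints in the Ddx58 3′ UTR were far weaker, at 0 to 0.205 in KO and 0.116 to 0.372 in WT. Tmed7, a cargo receptor of the early secretory pathway, had 6 footprints, 5 of them higher in KO but none 2-fold. The sixth had 0.0977 in KO and 1.55 in WT, with a log2 KO/WT of -3.97, and was in 0 KO and 3 WT libraries. C330006A16Rik had 2.39 in KO and 1.39 in WT.

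Introns held 27 footprints on 16 genes, with a median of 0.502 in KO and 0.571 in WT. Of these, 12 lay within 5 kb past the end of an annotated protein-coding transcript of the same gene symbol. Antisense to a 3′ UTR lay 11, such as those of Gpr146, Evi2a, Evi2b and Capn7. Prkcb, the beta form of protein kinase C, had 5 intron footprints 31 to 2449 nt past the end of 1 of its transcripts. In order of distance they had 0.158, 0.461, 0.651, 1.55 and 0.858 in KO and 0.663, 0.293, 1.04, 1.88 and 1.08 in WT. The fourth was in all 6 libraries, and the fifth carried the miR-27 match. The 1 footprint in the annotated 3′ UTR of Prkcb had 0.330 in KO and 0.304 in WT.

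Ddx17, an RNA helicase, had 3 intron footprints at chromosome 15, of which those at 79365924 and 79366119 had 3.27 and 2.82 in KO and 1.65 and 1.30 in WT. The first of these carried the miR-125 match and was in 3 KO and 2 WT libraries. The third had 0.330 and 0.788. In the 3′ UTR of Ddx17, 4 footprints had 0.0227 to 0.394 in KO and 0.105 to 0.392 in WT, below the 2 strong intron footprints.

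Glb1, the lysosomal beta-galactosidase, gave the highest ratio of the 207. Occupancy in its intron, 1441 nt past the end of another annotation entry with the symbol Glb1, was 2.53 in KO and 0.101 in WT. The log2 KO/WT was 4.62, and the footprint was found in 2 KO libraries and no WT library. In Ppp2r5c, a regulatory subunit of phosphatase PP2A, both intron footprints were lower in KO, with 0.413 and 0.412 against 1.91 and 0.859 in WT. The intron footprint of Mcm9, a helicase of DNA repair, had 2.10 and 0.813 and lay opposite the 3′ UTR of Asf1a. Srsf7, a splicing factor, had 1.08 and 1.44, and Nrp2, a neuropilin receptor, 0.800 and 0.482, 46 nt past the end of 1 of its transcripts. Of the 3 opposite Gpr146, 1 was listed at 0 in KO and at 0.445 in WT, and the others had 0.742 and 0.413 in KO and 0.258 and 0.272 in WT.

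At the extremes of the ratio, the number of libraries differed by direction. Where neither genotype was listed at 0 and the mean reached the table median, the 8 lowest ratios, those of Camkk2, Tmed7, Kdm1a, Ube3a, Ap1g1, Hmox2, Zfp871 and Ppp2r5c, were all found in 0 KO libraries. The 8 highest were in at least 2 KO libraries each, and they belonged to Glb1, Itpripl2, Zfp871 with 2 footprints, Rnf44, Lonrf3, Dcaf8 and Brd2. These footprints were ranked on the values given here, which come from the same libraries as the counts. A footprint in no KO library could enter the table only through WT. The contrast by direction is therefore not an independent result. Of the gene lists searched, 2 of 20 transcription and RNA processing factors (Clk1 and Srsf7) and 1 of 8 ubiquitin and cell cycle genes (Wee1) had a footprint outside 3′ UTRs.

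The 40 seed matches were spread over 20 of the 28 families. Sites of miR-15/16 were in 5 footprints (2.42%; 1.99% of the table), of miR-125 in 4 (1.93%; 0.670%), and of miR-19, miR-34 and miR-142-5p in 3 each. No site of miR-21, miR-25/92, miR-26, miR-29, miR-101, miR-103, miR-146 or miR-221 (each with its family) was found. By class, sites were in 21 of the 109 footprints on no gene (19.3%), 6 of 27 in introns (22.2%), 5 of 34 in coding sequence (14.7%), 3 of 35 in noncoding exons (8.57%) and 1 of 2 in 5′ UTRs. Within 15 nt of the footprint centre lay 37.5% of the sites, against 50.9% over the table. With counts this small these shares are descriptions, and no difference between them was tested.

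Among the printed sites, those near the centre included Txnip miR-125 at 0.5 nt before it and Atp2a2 let-7 at 5.5 nt after it. The Metrnl match was 39 nt before the centre of a long footprint, and the Wee1 miR-155 match 16.5 nt before. Past Reep3, an endoplasmic reticulum protein, the 2 footprints with miR-34 matches had 0.175 and 0.458 in KO and 0.493 and 0.551 in WT. A match is a description and does not show which miRNA was bound.

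Base composition moved with the ratio, over the table and among the 207. In 3 parts of the table of nearly equal size, from low to high G+C content, the median log2 ratio of the 207 was -0.09, -0.04 and 0.36, with 59, 76 and 72 footprints, and over all footprints -0.53, -0.03 and 0.42. Median G+C was 42.7% in the 207 and 42.9% in the table. Its part in the differences above was not tested.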

How the data were processed

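Ago HITS-CLIP libraries of 3 WT and 3 Apobec1-/- littermates were analysed from the authors' deposited footprint table. Per the series design text, the authors aligned reads to mm9, joined them into clusters, took a footprint at each peak and divided it by RNA-Seq expression, so the deposited occupancy is a ratio. The other deposited columns are the footprint intervals and the number of libraries per genotype. Bowtie 0.12.8 and bedtools (no version) are credited from the submitters' processing notes. The way libraries were combined or scaled, and the transcript that gave the expression, are details not given in the sources used here.

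Intervals were set against GENCODE vM1 (NCBIM37, the assembly of mm9). A footprint on no 3′ UTR took its class from coding sequence first, then 5′ UTR, other exon and intron. Upstream ends used in naming a locus skip small RNA genes. Coordinates count from 1. Log2 ratios used a pseudocount of 0.00161, 50% of the smallest value above 0. So small a value shrinks the ratios of low occupancies little, so these can be extreme. Where KO was listed at 0, the size of the ratio is set by the pseudocount. Scripts used Python 3.11.15, numpy 2.4.6, pandas 2.3.3, pysam 0.24.0 and samtools 1.23.1 and were tested on simulated data. Named footprints were the 6 strongest per class, those in all 6 libraries, the 8 highest and 8 lowest ratios among those above 0 in both genotypes with a mean at or above the table median, the 5 highest WT values among those listed at 0 in KO, noncoding genes, genes with at least 2 footprints (a few are not named, and some results are not reported here), members of 3 gene lists and the strongest site of each miRNA family. Members and lists were chosen with earlier results of these data known. Footprints named beside these, such as those past Aak1 and Cct6a, were chosen after their values were seen.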

Additional observations from a re-analysis of the deposited data

How the results depend on the processing

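With a 3′ UTR footprint required to lie in it by at least 50% of its length, 333 footprints fell outside 3′ UTRs, not 207. The median log2 ratio was 0.63 in the 63 footprints held by 2 or more KO and 2 or more WT libraries, and 0.38 in the 141 held by 1 or more of each, an alternative added after the data were seen; over the table these settings gave 0.42 and 0.28. By their construction both settings drop footprints that were low in KO. With a pseudocount of 1, 3 footprints were at least 2-fold higher and 10 at least 2-fold lower in KO (104 and 127 in the table). Among the 132 footprints whose mean reached the table median, 25 were at least 2-fold lower (627 of 3135 in the table). Among the 141 held by 1 or more libraries of each genotype, also added later, 10 were (464 of 4489 in the table). A 6-nt seed match was found in 54.1% of footprints, AATAAA alone followed 51.2%, and 39 lay within 1 kb past a gene end. No share of the table is given here for these settings. The other 19 settings of these results moved them less than the limits used, and none reversed a direction. Of 169 named ratios, 63 passed 2-fold, and 11 did with a pseudocount of 1. No paired analysis was possible because the table gives 1 value per genotype, and for the same reason no library could be left out.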
